A study of Mus musculus with 22 samples.

Results

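The genes described here build, store and release fat: 45 genes of lipogenesis, triacylglycerol synthesis, lipolysis, lipid droplets and fatty acid uptake, read in the testes of mice with and without MLX. They were taken by symbol from the table of testis read counts, where all 45 have a row among 17931 gene symbols, and 43 had enough counts to be tested among 14640 genes. RNA came from whole testes of males aged 7 months, 3 WT males that were verified fertile breeders and 3 MLX KO males, in 3 pairs of age-matched littermates. MLX KO males carry a constitutive, whole-body deletion of the *Mlx* exons that encode the region for dimerization and DNA binding. The allele was targeted in 129S4 embryonic stem cells and recombined with Meox2-Cre, which was then bred out. No treatment was given, and the ChIP-Seq samples of the series, 16 of 22, were not analysed here.

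Fatty acids are made from citrate in the cytosol: citrate is split to acetyl-CoA, which is carboxylated, condensed to palmitate, and then elongated and desaturated. Fatty acids made or taken up are esterified to glycerol to form phospholipids and triacylglycerol, and triacylglycerol is kept in droplets coated by perilipins until lipases release it. In the testis, germ cells are rich in very-long-chain polyunsaturated fatty acids, Sertoli cells hold droplets and take up fatty acids and germ cell remnants, and Leydig cells store cholesterol esters for steroid synthesis. MLX pairs with MondoA or ChREBP, which sense glucose, or with MXD proteins and MNT, and these dimers bind E-boxes, whose core is CACGTG.

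The 6 libraries held between 16674678 and 19742726 counts. Levels are given as CPM (counts scaled to a common library size with a TMM composition factor), and differences as log2 fold changes (LFC) of MLX KO against WT with their standard errors (SE), from quasi-likelihood tests in edgeR, adjusted over all genes tested by the Benjamini-Hochberg method. The threshold was an adjusted p of 0.05. The 3 libraries labelled WT held between 96 and 128 counts of *Mlx* itself and the 3 labelled KO between 94 and 109 (LFC -0.18, SE 0.14, adjusted p = 0.326). Because exons outside the deletion are still counted, this does not check the labels, so directions compare libraries by their labels. Of the MLX KO libraries, KO1 lay nearest to the WT mean in 71.9% of all genes that rose and 74.3% of those that fell.

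Lipid genes moved in both directions, with rises and falls in several parts of the pathway. Of the 43 tested, 35 (81.4%) passed the threshold, of which 22 rose and 13 fell in MLX KO, where 45.4% of all genes passed, 24.8% higher and 20.6% lower. Regulators, desaturases, most elongases, *Acly* and the fatty acid binding proteins *Fabp3* and *Fabp5* were higher, by up to 2.93-fold. The members that fell, with LFCs between -0.41 and -0.17, included *Agpat1*, *Agpat2*, *Agpat3*, *Dgat1*, *Dgat2*, *Lpin1*, the lipases *Pnpla2* and *Lipe*, and *Fabp9*. The median LFC was 0.24 over the members against 0.03 over all genes tested. CPM values of the genotypes did not overlap for 21 members that were higher and 14 that were lower, against 56.2% of all genes in either direction.

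WT and MLX KO libraries of the same number were taken as littermate pairs. All 22 members that rose were higher in 3 of 3 pairs, and all 13 that fell were lower in 3 of 3. These members were picked by the test on the same 6 libraries, so this agreement is largely built in and is no separate check. Within pairs, the members' median LFC was 0.18, 0.47 and 0.24. KO1 was the MLX KO library closest to WT in 16 of the 22 and 11 of the 13. Without KO1, 37 members passed, 23 higher and 14 lower, with a median LFC of 0.32. With library size as the only scaling, 23 members rose and 7 fell, and the median LFC of all genes tested was itself 0.16 and that of the members 0.38. Blocking on the littermate pair gave 37 in edgeR and 30 in DESeq2.

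**Figure D1:**
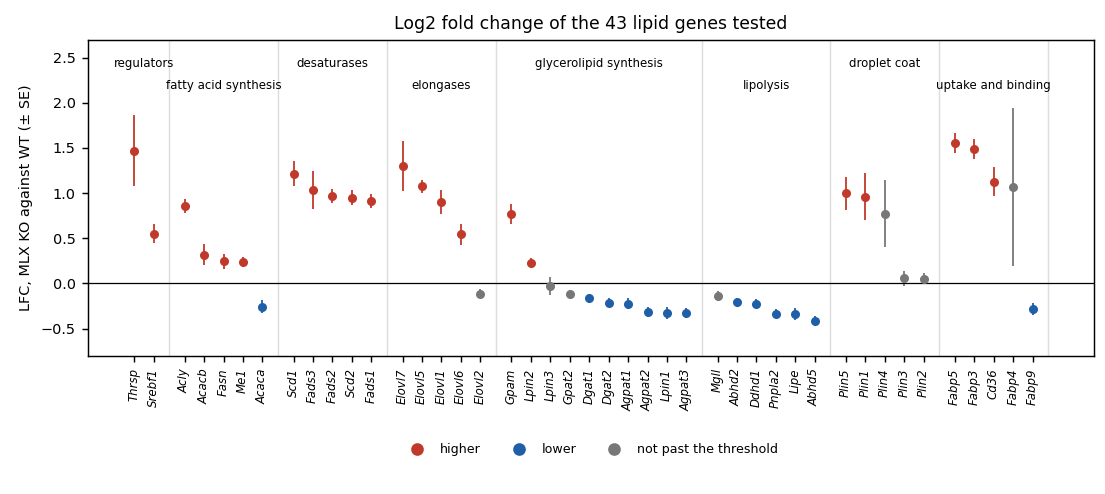
LFC of MLX KO against WT for the 43 lipid genes tested, grouped by role, with bars of 1 SE. Red points rose, blue points fell and grey points did not pass the threshold. All 5 desaturases lie between 0.92 and 1.22, and all 6 lipolysis genes lie below 0.

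The genes that rose were mostly low in WT testes and those that fell were abundant. Members that rose had a median WT level of 19.7 CPM, or 3.46 CPM per kb of exon, and a median LFC of 0.95. For the members that fell, the median WT level was 319 CPM, or 60.2 CPM per kb, and the median LFC was -0.28. No member that fell had fewer than 77.4 CPM in WT. All genes called in the experiment had medians of 9.55 CPM and an LFC of 0.65 where they rose, and 121 CPM and -0.27 where they fell. The most abundant members that rose were *Me1*, *Fabp3* and *Scd2*, at 139, 71.3 and 39.9 CPM per kb in WT.

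**Figure D2:**
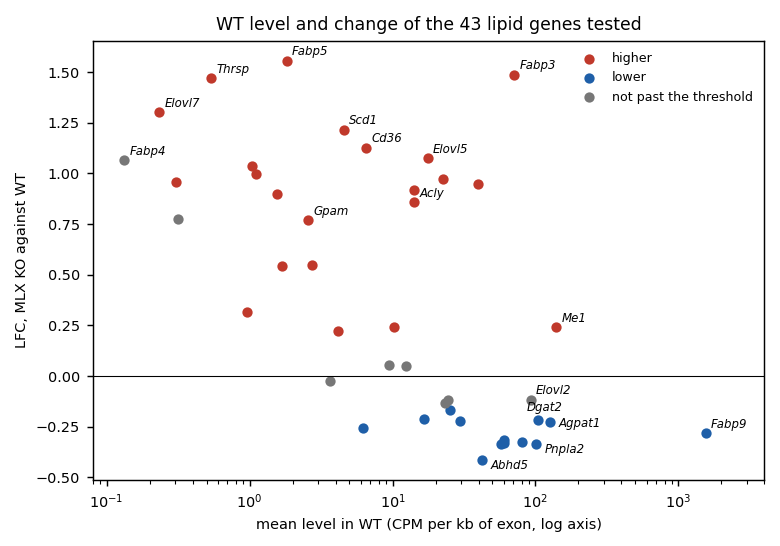
WT level, in CPM per kb of exon on a log axis, against the LFC of MLX KO against WT for the 43 lipid genes tested. *Fabp9* is the most abundant member at 1551 CPM per kb with an LFC of -0.28, and *Fabp5* has the largest rise, 1.56, from 1.82 CPM per kb.

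Since the E-box is the sequence that MLX dimers recognize, the promoters of the members were searched for CACGTG, which reads the same on both strands. RefSeq promoter windows (GRCm38.p6, the assembly of mm10, from 250 bases before to 50 after each start) were found for 36 of the 45. Some genes have several starts, and these 36 members had 49 windows. The motif stood in a window of 7 of these 36 members (19.4%), or 6 of the 35 that were tested (17.1%). It stood in a window of 11.1% of 11706 genes tested that have a window. Counting the bases before the start alone, it stood in 4 of 36 members (11.1%), or 4 of 35 tested (11.4%), against 9.45% of genes tested. The sites are shown 5′ to 3′ on the gene's strand, with the motif in capitals, because they let each member's promoter be set beside its change. *Lipe* lies on the minus strand and reaches to 25398486 on chromosome 7, so the start of its window with the motif lies inside the gene. Counted from the start site of the window, the first base of the motif lay at -161 for *Elovl5*, -9 for *Lpin2*, -155 for *Lipe*, -44 for *Mgll*, -4 for *Plin2*, 23 for *Lpin3* and 6 for *Elovl4*.
*Elovl5* (chr9:77917192-77917221): actgccccgagaCACGTGaaccacaggaga
*Lpin2* (chr17:71183511-71183540): cggagctcgcgtCACGTGgccgggccgggg
*Lipe* (chr7:25396125-25396154): aacagggacgacCACGTGagggggcggagg
*Mgll* (chr6:88724356-88724385): gggggccgggcaCACGTGgggccccggcgc
*Plin2* (chr4:86670046-86670075): cagctgggctatCACGTGgctcggaggctt
*Lpin3* (chr2:160880680-160880709): gcctgtttctgcCACGTGgctcacagctca
*Elovl4* (chr9:83806283-83806312): gccccgcgcggcCACGTGatgcgggcgagg
Of these 7, *Elovl5* and *Lpin2* rose, *Lipe* fell, *Mgll*, *Plin2* and *Lpin3* did not pass the threshold, and *Elovl4* had too few counts.

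*Elovl5* was also the one member whose window held TGACGTCA, the full cyclic AMP response element bound by CREM, a regulator of spermatid genes. That site follows, again with the motif in capitals, and lies just downstream of the start.
*Elovl5* (chr9:77917357-77917386): ccgcgccattgTGACGTCAcggtcagccca
The share was 1 of 36 members (2.78%), or 1 of 35 tested (2.86%), against 3.27% of genes tested that have a window. TCACCCCAC, a sterol response element, was found in no member's window and in 0.692% of genes tested that have a window. These are matches of letters in a short window, and 9 members, among them *Scd1*, *Scd2*, *Fads1*, *Dgat1*, *Dgat2*, *Fabp5* and *Fabp9*, could not be searched.

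Every marker list of a testis cell type was detected in all 6 libraries. The counts below stand beside 24.8% of all genes tested that rose and 20.6% that fell. Whole testes mix cell types, so fewer cells of a type and less RNA per cell cannot be told apart in these data. Markers of late germ cells were lower in MLX KO testes: 13 of 13 elongating spermatid markers fell, with a summed level of 31033 to 31969 CPM in WT and 19457 to 23289 in MLX KO, and 10 of 10 round spermatid markers fell, from 2076 to 2131 down to 1745 to 1851. Of 12 spermatocyte markers 8 fell (5096 to 5244 and 4230 to 4651 CPM). Of 9 spermatogonium markers tested, 2 rose and 1 fell (147 to 151 and 161 to 173 CPM). Summed levels of markers of testis somatic cells were higher. All 9 Leydig markers rose (1057 to 1106 and 2166 to 2837 CPM), as did all 12 Sertoli markers (1150 to 1207 and 1716 to 2082 CPM) and all 10 macrophage markers (87.1 to 92.6 and 189 to 193 CPM). Peritubular myoid markers rose in 5 of 6 (104 to 122 and 157 to 178 CPM). Endothelial markers rose in 2 of 7 (36.5 to 45.6 and 52.6 to 59.1 CPM), a share of 28.6% that is near that of all genes.

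The summed level of adipocyte markers overlapped between genotypes, at 9.02 to 14.9 CPM in WT and 5.73 to 13.5 in MLX KO. *Adipoq* had the highest count of this list in every library but KO3, so the sum leans on that gene. Of 10 markers, 5 had enough counts, and *Adipoq* fell (LFC -0.72, adjusted p = 0.00139) while the other 4 did not pass. *Adrb3*, a defining fat cell receptor, had at most 1 count in any library, and *Lep* had 2 to 13. Epididymis markers were near 0 apart from *Rnase10*, which fell (summed 4.11 to 5.02 and 2.66 to 3.34 CPM), and the summed red blood cell markers overlapped (19.0 to 21.4 and 19.5 to 20.9 CPM). The part that cell makeup has in the lipid gene changes was not tested, and the marker and lipid group levels stand side by side in the plot of markers and lipid groups.

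**Figure D3:**
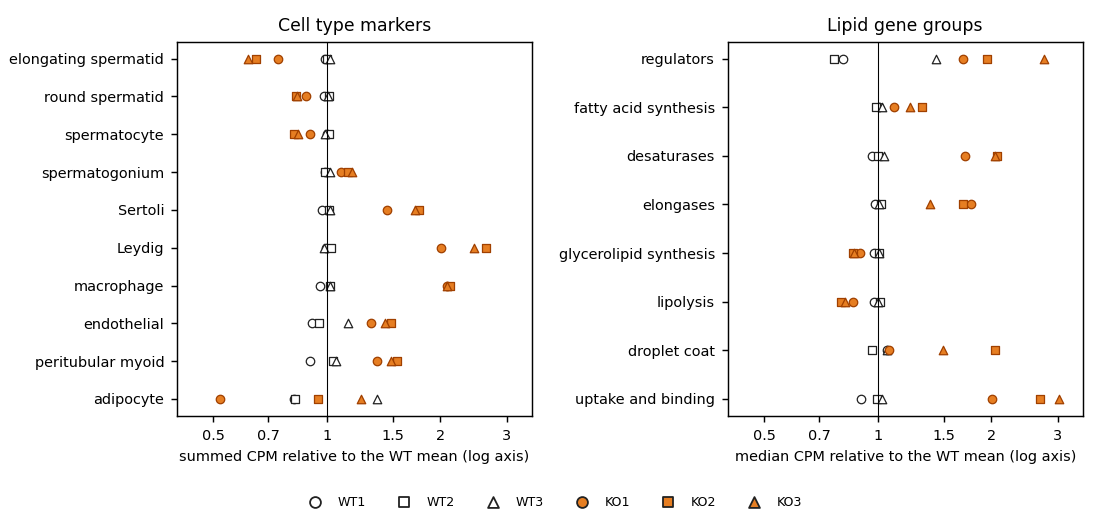
Left, summed CPM of each marker list in each library relative to the WT mean. Right, the median over each lipid gene group of the CPM relative to each gene's WT mean. Both axes are logarithmic, open symbols are WT and filled symbols MLX KO libraries. The spermatocyte and spermatid lists sit left of 1 in MLX KO, as do lipolysis and glycerolipid synthesis. In MLX KO the Sertoli, Leydig, macrophage, endothelial and peritubular myoid lists sit right of 1, as do all other lipid gene groups.

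Both regulators among the members rose. *Srebf1* (chr11:60199084-60224186), which encodes the transcription factor that switches on fatty acid synthesis genes, had 15.2, 14.5 and 16.6 CPM in WT1, WT2 and WT3 and 19.5, 24.7 and 23.8 CPM in KO1, KO2 and KO3. Every MLX KO value was above every WT value, and KO1 was the lowest of them. *Srebf1* was 1.47-fold higher (LFC 0.55, SE 0.10, adjusted p = 0.00143). *Thrsp* (chr7:97412933-97417550), a small protein tied to lipogenesis in liver and fat, was rare, with WT counts of 14, 11 and 37 and MLX KO counts of 48, 49 and 88, or 0.738, 0.699 and 2.09 and 2.48, 2.71 and 4.66 CPM. WT3 and KO3 were the highest of their groups, and the groups did not overlap. Its LFC was 1.47 (SE 0.39, adjusted p = 0.0101), and it stayed past the threshold in all 14 alternatives, with an LFC between 1.14 and 2.18.

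In the synthesis of fatty acids, 4 of 5 genes rose and 1 fell, and the changes were uneven along the path. *Acly* (chr11:100476352-100528000), which makes cytosolic acetyl-CoA from citrate, had 73.3, 76.8 and 73.7 CPM in WT and 116, 148 and 142 CPM in MLX KO. WT values were close together, and all MLX KO values lay above them, KO1 lowest. *Acly* rose 1.81-fold (LFC 0.86, SE 0.08, adjusted p = 2.22e-05), the largest change of the group. It lies 559 kb from *Mlx* on the same chromosome, closer than *Fasn*, *Acaca* and *Srebf1*, which are also on chromosome 11 but at least 16685 kb away.

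The other genes of this group changed less than *Acly*. *Me1* (chr9:86581363-86695914), the malic enzyme that supplies NADPH, had the highest level per length of the group, with 520, 538 and 551 CPM in WT and 591, 654 and 655 CPM in MLX KO, or 139 ± 4.10 and 165 ± 9.45 CPM per kb (SD, n = 3). The groups did not overlap, and *Me1* rose by an LFC of 0.24 (SE 0.05, adjusted p = 0.00437). *Fasn* (chr11:120805958-120825166), the fatty acid synthase, had 115, 107 and 115 CPM in WT and 115, 148 and 137 CPM in MLX KO. Its KO1 value fell within the WT range, and the first littermate pair showed an LFC of 0.00. *Fasn* passed at an adjusted p of 0.0278 (LFC 0.24, SE 0.08), which was 0.064 in DESeq2 with the pair as a block and 0.0525, 0.11, 0.112 and 0.074 without WT1, WT2, KO2 or KO3.

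The acetyl-CoA carboxylases, which commit acetyl-CoA to fatty acids, moved in opposite directions. *Acaca*, the cytosolic form, had 108, 99.8 and 109 CPM in WT and 79.4, 87.5 and 97.9 CPM in MLX KO, so KO3 came closest to the WT range without reaching it. It fell (LFC -0.26, SE 0.07, adjusted p = 0.0131), while with library size alone the adjusted p was 0.275. *Acacb*, the mitochondrial form that governs fatty acid oxidation, had 9.28, 9.16 and 9.25 CPM in WT and 10.8, 13.3 and 10.4 CPM in MLX KO. Its rise was slight (LFC 0.32, SE 0.12, adjusted p = 0.0432) and was lost in 7 of 14 alternatives, with an adjusted p of 0.178 without KO2, 0.0914, 0.105 and 0.0892 without WT1, WT2 or WT3, and 0.281 in DESeq2 with the pair as a block. As a share of the carboxylase level per kb, *Acacb* took 13.4% ± 0.482 in WT and 18.9% ± 2.78 in MLX KO (SD, n = 3, exact permutation test, two-sided p = 0.1, the smallest that 3 against 3 allow).

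All 5 desaturases rose, with LFCs between 0.92 and 1.22. None lost the threshold in any of the 14 alternatives. *Scd1* (chr19:44394450-44407709) and *Scd2* (chr19:44293676-44306864), neighbours that encode stearoyl-CoA desaturases, make monounsaturated fatty acids. *Scd1* had 21.2, 21.8 and 23.7 CPM in WT and 38.5, 58.5 and 58.1 CPM in MLX KO. KO1 stood between the WT libraries and the other MLX KO libraries, and the groups did not overlap. *Scd1* rose 2.32-fold (LFC 1.22, SE 0.14, adjusted p = 7.31e-05). *Scd2*, the main form in testis, had 203, 224 and 227 CPM in WT and 363, 453 and 446 CPM in MLX KO, again with KO1 the lowest of its group. It rose 1.93-fold (LFC 0.95, SE 0.08, adjusted p = 1.22e-05).

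Together the *Scd1* and *Scd2* level was 44.4 ± 2.58 CPM per kb in WT and 87.6 ± 11.5 in MLX KO (SD, n = 3, exact permutation p = 0.1, two-sided), and *Scd2* made up 89.8% and 88.0% of it. *Scd3* and *Scd4*, paralogs that are not members, were rare at 1.96 and 0.807 CPM in WT and did not pass the threshold (adjusted p = 0.0545 and 0.954). Reads that fit more than one Scd gene may have been split or dropped in counting, so the values of single Scd genes are uncertain to that extent.

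*Fads1* (chr19:10182877-10196874), *Fads2* (chr19:10062765-10101503) and *Fads3* (chr19:10040855-10060113) form a cluster, of which *Fads1* and *Fads2* introduce double bonds near the carboxyl end in the synthesis of polyunsaturated fatty acids. *Fads1* had 69.0, 67.7 and 66.3 CPM in WT and 110, 137 and 135 CPM in MLX KO. *Fads2* had 71.9, 78.2 and 73.7 CPM in WT and 127, 152 and 159 CPM in MLX KO. Both were tight in WT and higher in every MLX KO library, with KO1 the lowest. The LFC was 0.92 (SE 0.08, adjusted p = 1.07e-05) for *Fads1* and 0.97 (SE 0.08, adjusted p = 8.53e-06) for *Fads2*. *Fads3* was rare, with 5.06, 2.73 and 4.12 CPM in WT and 7.32, 10.1 and 7.31 CPM in MLX KO. Its WT values scattered more than those of its neighbours, yet none reached an MLX KO value (LFC 1.03, SE 0.21, adjusted p = 0.00215). Within the cluster, *Fads1* took 37.3% and 36.3% (exact permutation p = 0.2) and *Fads2* 60.0% and 60.7% (p = 0.6) of a summed level that went from 37.7 ± 0.675 to 73.1 ± 8.31 CPM per kb.

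Elongases, which add carbons to fatty acyl-CoA, split between 4 that rose and *Elovl2*, by far the most abundant, which did not pass the threshold. *Elovl2* (chr13:41182382-41220403), which elongates long polyunsaturated fatty acids, had 352, 381 and 371 CPM in WT and 353, 331 and 334 CPM in MLX KO, or 92.7 ± 3.76 and 85.5 ± 3.08 CPM per kb (SD, n = 3). KO1 matched WT1 and the other MLX KO libraries were lower. The LFC was -0.12 (SE 0.05, adjusted p = 0.0828), with an adjusted p of 0.0387 in DESeq2 and 0.00943 without KO1, and the sign turned to 0.02 with library size alone.

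*Elovl5* (chr9:77917365-77984519), the elongase of polyunsaturated fatty acids whose promoter carries the E-box shown above, had 61.0, 61.0 and 64.1 CPM in WT and 116, 141 and 135 CPM in MLX KO. No MLX KO library came near the WT values. It rose 2.11-fold (LFC 1.07, SE 0.07, adjusted p = 3.10e-06), the smallest adjusted p of the members tested. *Elovl1* (chr4:118426874-118432953), for saturated very-long-chain fatty acids, had 4.27, 4.26 and 4.17 CPM in WT and 7.48, 8.91 and 7.36 CPM in MLX KO. The WT libraries were almost equal and the groups were apart (LFC 0.90, SE 0.13, adjusted p = 0.000343).

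*Elovl6* (chr3:129532386-129638495), which elongates palmitate, had 10.3, 11.8 and 10.4 CPM in WT and 14.2, 18.3 and 14.9 CPM in MLX KO, with KO2 standing highest (LFC 0.54, SE 0.11, adjusted p = 0.00285). *Elovl7* (chr13:108214326-108287109) was rare, with 0.896, 0.954 and 0.959 CPM in WT and 1.70, 3.04 and 2.22 CPM in MLX KO. All 3 MLX KO values were higher, and they spread more than those of WT (LFC 1.30, SE 0.27, adjusted p = 0.0028). *Elovl3* counts were 14, 9 and 14 in WT libraries and 6, 6 and 9 in MLX KO, and *Elovl4* had 7, 6 and 4 and 19, 8 and 4 counts. Both were left out of the tests as too low.

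The makeup of the elongases thereby differed between genotypes, while their sum went from 114 ± 3.94 to 129 ± 1.49 CPM per kb (SD, n = 3). *Elovl2* accounted for 81.1% ± 0.584 of the summed level in WT and 66.4% ± 3.03 in MLX KO, and *Elovl5* for 15.4% ± 0.582 and 28.7% ± 2.68. These shares did not overlap between genotypes (exact permutation p = 0.1, two-sided, for the sum and both shares, the smallest possible). *Hsd17b12*, the reductase that works with the elongases and is not a member, rose by an LFC of 1.07 (SE 0.07, adjusted p = 3.18e-06), and *Tecr*, the enzyme of the final step of the cycle, by 0.54 (SE 0.07, adjusted p = 0.00024).

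**Figure D4:**
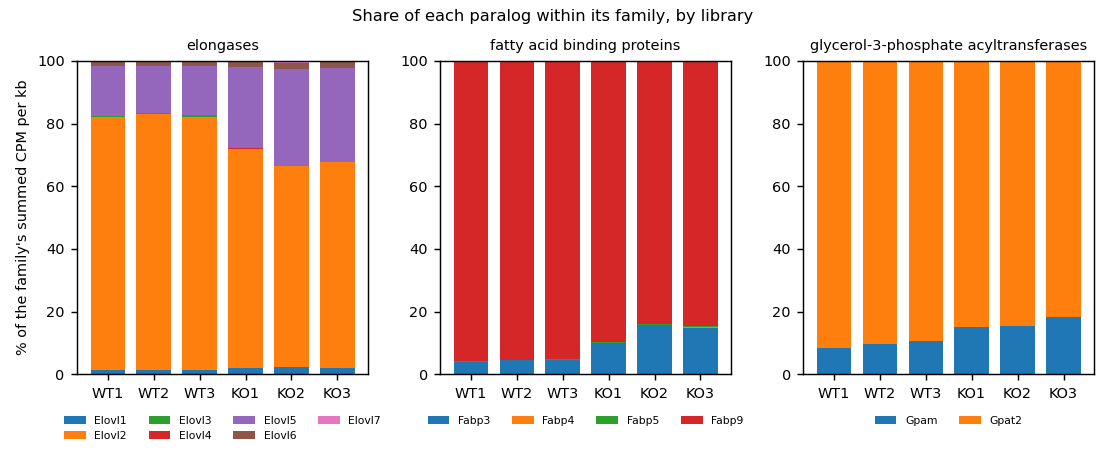
Share of each paralog in the summed level of its family, in percent of CPM per kb of exon, for each library. Families hold only genes that are members. In MLX KO libraries, *Elovl5*, *Fabp3* and *Gpam* take larger shares than in any WT library and *Elovl2*, *Fabp9* and *Gpat2* smaller ones.

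Glycerolipid synthesis held 6 of the 13 members that fell, and 2 of its 10 genes rose. In the first step, acylation of glycerol-3-phosphate, *Gpam* rose and *Gpat2* did not pass the threshold. *Gpat3*, an enzyme of this step that is not a member, fell (LFC -0.23, SE 0.08, adjusted p = 0.029). It had 10.3 CPM per kb in WT. *Gpam* (chr19:55067635-55127319), the mitochondrial acyltransferase of lipogenic tissues, had 14.8, 17.4 and 19.2 CPM in WT and 26.9, 27.4 and 33.3 CPM in MLX KO. The groups were apart, and *Gpam* rose 1.70-fold (LFC 0.77, SE 0.11, adjusted p = 0.000317). *Gpat2*, the acyltransferase found mainly in testis, had 62.8, 64.8 and 64.5 CPM in WT and 59.9, 58.8 and 58.4 CPM in MLX KO, which did not overlap but did not pass the threshold (LFC -0.12, adjusted p = 0.0663), and the LFC was 0.02 with library size alone. *Gpam* made up 9.53% ± 1.01 of their summed level in WT and 16.3% ± 1.79 in MLX KO (exact permutation p = 0.1, two-sided), while the sum was 26.9 ± 0.697 and 26.8 ± 0.376 CPM per kb (p = 0.8).

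Lysophosphatidic acid acyltransferases make phosphatidic acid, and all 3 members of this kind fell. Of their relatives outside the members, *Agpat4* rose (LFC 0.80, SE 0.11, adjusted p = 0.000217) and *Agpat5* did not pass the threshold (adjusted p = 0.662). *Agpat1* (chr17:34604195-34613449), the highest of the group per kb of exon, had 357, 398 and 382 CPM in WT and 347, 320 and 305 CPM in MLX KO, or 126 ± 6.87 and 108 ± 7.15 CPM per kb (SD, n = 3). The genotypes did not overlap, and WT1 and KO1 lay closest together. The LFC was -0.23 (SE 0.06, adjusted p = 0.0104), with an adjusted p of 0.0575 without WT2, 0.0528 without KO3 and 0.142 with library size alone. *Agpat2* fell by 0.32 (SE 0.06, adjusted p = 0.00119) and *Agpat3* by 0.33 (SE 0.06, adjusted p = 0.000793) on the log2 scale.

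Lipins turn phosphatidic acid into diacylglycerol. *Lpin1* (chr12:16535669-16653903), the most abundant of the 3, had 761, 792 and 799 CPM in WT and 693, 587 and 597 CPM in MLX KO, with all MLX KO values lower and KO1 the nearest to WT. Its LFC was -0.33 (SE 0.06, adjusted p = 0.00206). *Lpin2*, with the E-box shown above, rose slightly (LFC 0.22, SE 0.05, adjusted p = 0.00678, or 0.105 in DESeq2 with the pair as a block). *Lpin3*, which also has an E-box, had an LFC of -0.03 (adjusted p = 0.844), and this turned positive, to at most 0.11, without WT1, without KO1 or with library size alone. The lipin sum was 88.9 ± 1.87 CPM per kb in WT and 73.2 ± 5.61 in MLX KO, and *Lpin1* made up 91.2% and 88.4% of it (exact permutation p = 0.1 for both, two-sided).

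The last step to triacylglycerol was lower in both of its enzymes. *Dgat2* had 303, 325 and 329 CPM in WT and 281, 267 and 275 CPM in MLX KO (LFC -0.22, SE 0.05, adjusted p = 0.00475, or 0.133 with library size alone). *Dgat1*, at 25.3 CPM per kb in WT against 103 for *Dgat2*, had an LFC of -0.17 (SE 0.05, adjusted p = 0.0189). The *Dgat1* call was lost in 6 alternatives, with an adjusted p of 0.0811, 0.0543, 0.0687 and 0.0737 without WT2, WT3, KO2 or KO3, 0.0883 in DESeq2 with the pair as a block and 0.651 with library size alone. *Dgat2* made up 80.3% of their level in WT and 79.8% in MLX KO (exact permutation p = 0.3, two-sided), and their sum was 129 ± 5.26 CPM per kb in WT and 112 ± 2.81 in MLX KO.

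Of 6 lipolysis genes, 5 fell, and *Mgll*, which did not pass, also had a negative LFC except with library size alone, where it was 0.01 and 3 of the 6 fell. Of 18 further genes of droplets and lipolysis that were tested, 10 rose and 2 fell (66.7% passed, against 45.4% of all genes). Their median LFC was 0.50. The rises include the lipases *Lipa* (LFC 1.28, adjusted p = 6.99e-05) and *Ces1d* (LFC 0.76, adjusted p = 0.000134). *Pnpla2* (chr7:141455188-141460743), which encodes the lipase that starts triacylglycerol breakdown, was the highest of the 6 members per kb, with 296, 304 and 316 CPM in WT and 256, 236 and 235 CPM in MLX KO. The groups did not overlap, and KO1 was nearest to WT. Its level went from 101 ± 3.25 to 80.2 ± 3.92 CPM per kb (SD, n = 3; LFC -0.33, SE 0.05, adjusted p = 0.00047).

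*Abhd5*, the activator of that lipase, showed the largest fall of the members tested, with 245, 256 and 249 CPM in WT and 201, 181 and 180 CPM in MLX KO (LFC -0.41, SE 0.05, adjusted p = 0.000169). *Lipe*, the hormone-sensitive lipase of the next step, fell by 0.34 (SE 0.06, adjusted p = 0.00131) on the log2 scale. The window of a start inside *Lipe* carries an E-box. On the opposite strand, genes without a row in the table share 15.95% of *Abhd5* exon bases and 15.6% of *Lipe* exon bases. Without known library strand, reads there cannot be told apart. *Mgll*, the monoacylglycerol lipase of the last step and another gene with an E-box, had an LFC of -0.13 and an adjusted p of 0.0655, which was 0.0489 in DESeq2, 0.0325 with DESeq2's size factors and 0.0329 without KO3. *Abhd2*, a hydrolase needed for sperm activation, fell by 0.21 (adjusted p = 0.00396) and *Ddhd1*, a phosphatidic acid phospholipase, by 0.22 (adjusted p = 0.00299), and both lost the threshold with library size alone (adjusted p = 0.185 and 0.074). Elongating spermatid markers fell by a median LFC of -0.50 and round spermatid markers by -0.26, beside a median of -0.28 for the 6 lipolysis genes.

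Perilipins coat the lipid droplet, and the 2 abundant ones did not pass the threshold while 2 rare ones rose. *Plin2* (chr4:86626910-86670217), the coat protein of most tissues and the highest of the group at 12.5 ± 0.718 CPM per kb, had 42.0, 42.8 and 46.7 CPM in WT and 45.1, 45.3 and 45.7 CPM in MLX KO. All MLX KO values lay inside the WT range. The LFC was 0.05 (SE 0.06, adjusted p = 0.518), and 0.19 with an adjusted p of 0.03 with library size alone. *Plin3*, its close relative, had an LFC of 0.05 (SE 0.08, adjusted p = 0.602), which was -0.03 without WT2.

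*Plin5* (chr17:56111597-56117606), the perilipin of tissues that burn fat, had 2.53, 2.23 and 2.14 CPM in WT and 3.82, 4.87 and 5.14 CPM in MLX KO. The groups were apart, with KO1 lowest, and *Plin5* rose 2.00-fold (LFC 1.00, SE 0.18, adjusted p = 0.00119). *Plin1* (chr7:79721164-79732904), the perilipin of adipocytes and steroid-producing cells, was counted 36, 17 and 23 times in WT and 61, 57 and 40 times in MLX KO, or 1.90, 1.08 and 1.30 and 3.15, 3.15 and 2.12 CPM. WT1 and KO3 were nearly equal, and no values overlapped. Its LFC was 0.96 (SE 0.26, adjusted p = 0.0113), with an adjusted p of 0.0687 in DESeq2 with the pair as a block and 0.0509 without WT2. *Plin4* varied by library, with 1.21, 2.03 and 2.26 CPM in WT and 1.39, 3.76 and 4.24 CPM in MLX KO, so KO1 fell among the WT values. It did not pass (LFC 0.77, SE 0.37, adjusted p = 0.113), but had an adjusted p of 0.016 in edgeR's blocked fit and 0.0028 without KO1 (LFC 1.14). Over all 5 perilipins the summed level was 23.6 ± 1.39 CPM per kb in WT and 26.0 ± 0.450 in MLX KO (exact permutation p = 0.1, two-sided).

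Uptake and binding held the largest rises. *Fabp5* (chr3:10012585-10016610), a fatty acid binding protein of skin, macrophages and endothelium, had 5.85, 7.25 and 6.37 CPM in WT and 17.1, 20.4 and 19.6 CPM in MLX KO. Every MLX KO library was well above the WT range, and *Fabp5* rose 2.93-fold (LFC 1.56, SE 0.11, adjusted p = 4.77e-06). *Fabp3* (chr4:130308738-130315463), the heart form, had 55.8, 60.0 and 60.4 CPM in WT and 129, 186 and 179 CPM in MLX KO, with KO1 again lowest in its group. It rose 2.80-fold (LFC 1.49, SE 0.11, adjusted p = 7.03e-06). On the opposite strand, *Zcchc17* shares 81 bases (9.84%) of *Fabp3* exon, and without known library strand reads there cannot be told apart. *Cd36* (chr5:17781690-17888959), a fatty acid carrier and scavenger receptor of macrophages, endothelium and Sertoli cells, had 18.5, 23.5 and 28.5 CPM in WT and 47.3, 63.1 and 43.5 CPM in MLX KO. The values spread within both groups without overlap, and *Cd36* rose 2.18-fold (LFC 1.13, SE 0.16, adjusted p = 0.000254). In the same libraries the median LFC was 1.35 for macrophage markers, 1.02 for Leydig and 0.61 for Sertoli markers. It was 0.59 for peritubular myoid and 0.55 for endothelial markers, of which 2 of 7 passed the threshold. The part these cell types have in the rises was not tested.

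*Fabp9* (chr3:10193623-10197283), the binding protein of the sperm head, was the most abundant of the 45 members, with 1048, 1004 and 966 CPM in WT and 908, 778 and 797 CPM in MLX KO, or 1551 and 1275 CPM per kb. KO1 was nearest to WT, and the groups did not overlap (LFC -0.28, SE 0.06, adjusted p = 0.00451). Of its exon bases, 53.0% are shared with *Gm37389* on the same strand, which has no row in the table. *Fabp5*, *Fabp9* and *Fabp4* all lie on chromosome 3, with *Fabp9* between the others. Of the level summed over the 4 binding proteins, *Fabp9* made up 95.5% ± 0.363 in WT and 86.0% ± 3.18 in MLX KO, and *Fabp3* 4.40% ± 0.342 and 13.6% ± 3.11 (SD, n = 3, exact permutation p = 0.1 for each, two-sided). The sum itself was 1624 ± 60.0 and 1481 ± 69.8 CPM per kb (exact permutation p = 0.1).

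*Fabp4*, the binding protein of adipocytes and macrophages, was counted 0, 4 and 27 times in WT and 4, 23 and 43 times in MLX KO. The libraries of each genotype spread widely and overlapped with the other, and the LFC of 1.07 (SE 0.88, adjusted p = 0.346) did not pass. With the pair blocked, the adjusted p was 0.0318 in edgeR and 0.087 in DESeq2. Leaving out 1 library at a time, the LFC ranged from 0.30 without KO3 (adjusted p = 0.841) to 3.35 without WT3 (adjusted p = 0.0333). Adipocyte markers varied between libraries too, and not all in the same order. *Cfd* counts were 4, 2 and 29 in WT libraries and 0, 20 and 26 in MLX KO, *Car3* counts were 4, 11 and 39 and 2, 29 and 76, and *Adipoq* counts were 124, 97 and 125 and 80, 75 and 71. Within each genotype, *Cfd*, *Car3*, *Fabp4*, *Thrsp* and *Plin4* were each highest in WT3 and KO3, while *Plin1* was not. What the adipocyte markers have to do with the counts of *Fabp4*, *Thrsp* and *Plin4* was not tested.

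**Figure D5:**
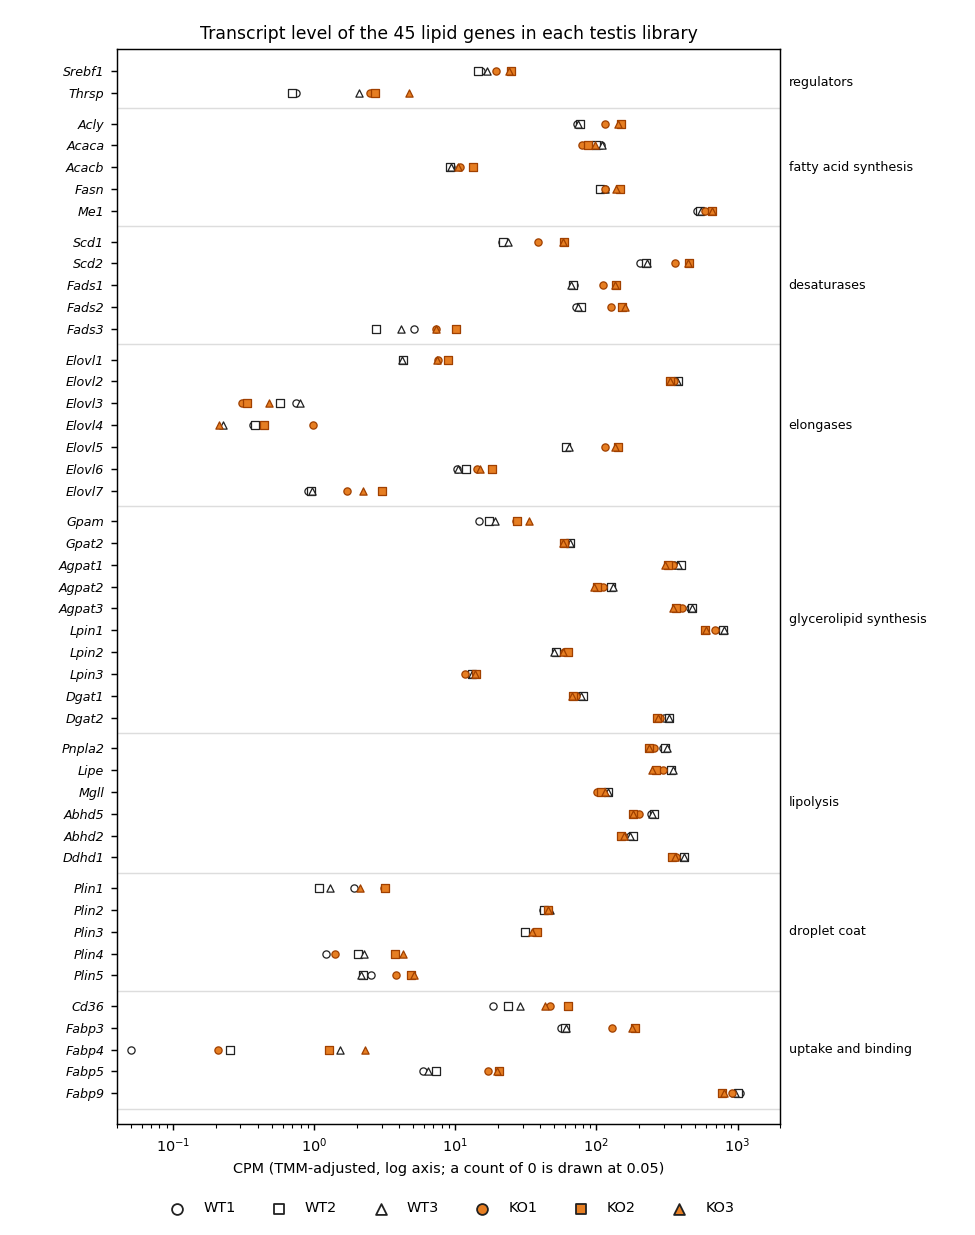
CPM of each of the 45 lipid genes in each library on a log axis, grouped by role, with open symbols for WT and filled symbols for MLX KO, and shapes for littermate pairs. *Elovl3* and *Elovl4* are plotted but were too low to test. *Fabp9*, *Lpin1* and *Me1* lie highest, above 500 CPM in every library, and *Fabp4* spreads most between libraries.

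Beyond the members, 85 further genes of the same pathways were listed, of which 77 have a row and 68 had enough counts. Of these, 35 rose and 10 fell, 66.2% in all, with a median LFC of 0.35. Over all genes tested, 24.8% rose and 20.6% fell, 45.4% in all, with a median LFC of 0.03. For the related genes, library size alone gave 38 that rose and 4 that fell. Among regulators 8 of 12 rose. *Mlxipl*, which encodes the MLX partner ChREBP, rose by an LFC of 1.04 (adjusted p = 0.000231), and *Mlxip*, which encodes MondoA, by 0.42 (adjusted p = 0.000713). These are transcript levels, and the paper's western blots of MLX KO testes showed less of both proteins. *Scap*, the escort of SREBP, rose by 0.64 (adjusted p = 8.63e-05) and *Srebf2*, which drives sterol synthesis, by 0.28 (adjusted p = 0.00329). *Pparg*, the adipocyte regulator, had an LFC of -0.19 and an adjusted p of 0.58.

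The 4 largest rises were *Hsd17b11*, a droplet-associated dehydrogenase (LFC 1.63, SE 0.15, adjusted p = 2.22e-05), *Lipa*, the lysosomal acid lipase (LFC 1.28, SE 0.14, adjusted p = 6.99e-05), *Gpd1*, which makes glycerol-3-phosphate (LFC 1.20, SE 0.20, adjusted p = 0.000683), and *Hsd17b12*. The 4 largest falls were *Dbil5*, a testis acyl-CoA binding protein (LFC -0.49, SE 0.08, adjusted p = 0.000425), *Acsl1*, a long-chain acyl-CoA synthetase (LFC -0.36, SE 0.06, adjusted p = 0.000464), *Me3*, a mitochondrial malic enzyme (LFC -0.32, SE 0.10, adjusted p = 0.018), and *Acsbg2*, an acyl-CoA synthetase of testis (LFC -0.28, SE 0.07, adjusted p = 0.00685). Paralogs again parted: *Acsbg1* rose (LFC 1.06, adjusted p = 8.11e-05) while *Acsbg2* fell, and *Dbi* rose (LFC 0.79, adjusted p = 5.18e-05) while *Dbil5* fell. Seipin, encoded by *Bscl2* and needed for droplet formation, fell by 0.24 (adjusted p = 0.00374) and the droplet genes *Fitm1* and *Fitm2* rose by 0.82 and 0.70 (adjusted p = 0.000307 and 0.00158).

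Of the 35 members past the threshold, 25 kept it in all 14 alternatives: both regulators, all desaturases, *Elovl1*, *Elovl5*, *Elovl6*, *Elovl7*, *Acly*, *Me1*, *Gpam*, *Plin5*, *Cd36*, *Fabp3* and *Fabp5* among those that rose, and *Agpat2*, *Agpat3*, *Lpin1*, *Pnpla2*, *Lipe*, *Abhd5* and *Fabp9* among those that fell. The other 10 were *Fasn*, *Acaca*, *Acacb*, *Agpat1*, *Lpin2*, *Dgat1*, *Dgat2*, *Abhd2*, *Ddhd1* and *Plin1*, each of which lost it in at least 1.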

How the data were processed

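RNA of whole testes from 3 WT and 3 MLX KO males was sequenced as paired-end reads. The authors deposited 1 table of raw counts per gene symbol and library, aligned to mm10 with TopHat per the study's methods. The submitters' processing notes also name bcl2fastq 1.8.4, Bowtie2, DESeq2 and bedtools, and the counting tool and annotation are not given in the sources used here. The table's columns of the authors' own comparison, with mean signal, log2 fold changes, their errors, test statistics and p-values, were not used. Of 17933 rows, 2 were repeats and were used once.

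Members and lists were chosen with earlier results of these data known. Counts were tested in edgeR 4.0.16 (R 4.3.3) by the quasi-likelihood test, two-sided, with TMM, the edgeR filter at a minimum of 10 counts, genotype alone in the model and p-values adjusted by Benjamini-Hochberg over 14640 genes. The methods text states no paired model, although the study also speaks of a pair-wise analysis, and the pair is left out of the main fit. The sample labels name paired replicates and no litters, while the paper describes 3 pairs of age-matched littermates. WT and MLX KO libraries of the same number were taken as a pair. Deviations from the group means correlated at 0.145, 0.0363 and 0.121 within these pairs and between -0.123 and 0.033 otherwise. Deviations cancel out within a group for each gene, so these correlations depend on one another and do not settle the pairing. No libraries were duplicates (chi-square per degree of freedom between 2.66 and 7.92). Levels per kb used the union of exons in the GENCODE annotation. RefSeq served to match names, and 17248 symbols matched current and 649 older RefSeq symbols, with 34 unmatched. Exact permutation tests of 3 against 3 cannot give a p under 0.1. Counting error weighs most on the members with few counts. The p-values of the edgeR tests set the difference between genotypes against the variability estimated from these animals.

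All members are named. Values for each library were given for members past the threshold with an LFC of at least 0.5 in size and for the member of each role group with the highest level per kb, and for a few others chosen after their values were seen (*Acaca*, *Acacb*, *Fasn*, *Gpat2*, *Lpin1*, *Dgat2*, *Abhd5*, *Plin4* and *Fabp4*). Of the related genes, the 4 largest rises and falls were named, and all other related genes named were chosen after their values were seen. Alternatives were DESeq2 1.42.0, other scalings, other filters, the pair as a block and each library left out. The code was tested on simulated data.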

Additional observations from a re-analysis of the deposited data

How the results depend on the processing

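Across 14 alternatives, 30 to 37 of the 43 members tested passed the threshold, 18 to 24 higher and 7 to 15 lower, and the members' median LFC lay between 0.20 and 0.38. With a replicate block for the littermates, 37 members passed in edgeR (24 higher, 13 lower) and 30 in DESeq2 (18 higher, 12 lower), and over all genes 6743 and 4604 passed. DESeq2 with the block called 2249 of all genes higher, against 3634 without the block in edgeR. Beyond *Acacb*, *Fasn*, *Lpin2*, *Dgat1*, *Plin1*, *Plin4* and *Fabp4*, the block changed no member's call. With library size alone, lower calls went from 3015 to 1268 of all genes, from 13 to 7 members, from 10 to 4 related genes and from 34 to 22 markers. That scaling also turned the LFC of *Elovl2* to 0.0230, *Gpat2* to 0.0216, *Mgll* to 0.00589 and *Lpin3* to 0.11, none past the threshold in either fit. Leaving out each library in turn, the LFC of *Lpin3* ranged from -0.0665 to 0.0547 (positive without WT1 or KO1) and the LFC of *Plin3* from -0.0264 (without WT2) to 0.0972. Leaving out each library in turn gave 5130 to 7395 genes, 30 to 37 members (19 to 23 higher, 11 to 14 lower), 33 to 35 related genes higher and 7 to 10 lower. The main limits are 3 animals a group, whole tissue, and few counts for *Thrsp*, *Plin1*, *Plin4*, *Elovl7* and *Fabp4*.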
